A study of Mus musculus with 6 samples.

Results

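The genes described are those of the cytosolic ribosomal proteins, the protein building blocks of the ribosomes that translate nuclear mRNAs. Members were chosen by name: array annotation symbols made of Rpl or Rps and a number, with an optional a, x or y, together with Rplp0, Rplp1, Rplp2 and Rpsa, provided that a probe set carried that symbol alone. This gave 42 genes, 20 of the small subunit and 22 of the large, out of 18193 genes named on the array by a single symbol. They were read by 94 of 45037 probe sets, and each gene stood for its brightest probe set. RefSeq lists 76 mouse genes whose symbols follow the same pattern, so 34 of them had no probe set of their own here.

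RNA came from erythroid progenitors of bone marrow, sorted for the transferrin receptor CD71 and the erythroid antigen Ter119, from female mice 6 weeks old. The 3 knockout mice were Bcl11a fl/fl EpoR-Cre+, in which Cre driven from the erythropoietin receptor gene removes the floxed part of Bcl11a in the red cell lineage. The 3 control mice were Bcl11a +/+, with no Cre named, so effects of Cre and of losing Bcl11a cannot be told apart. Each mouse gave 1 Affymetrix array.

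Every ribosome needs one copy of nearly all of these proteins, and their genes are transcribed at high rates in dividing cells. Most vertebrate ribosomal protein mRNAs begin with a terminal oligopyrimidine (TOP) tract, a C at the first transcribed base followed by a run of C and T, through which the mTOR pathway and the RNA-binding protein Larp1 control their translation together. Erythroid progenitors depend on a full supply: loss of one working copy of several of these genes causes Diamond-Blackfan anaemia, a failure of red cell formation. BCL11A is a transcriptional repressor of embryonic globin genes, and the comparison asked which transcripts change in adult erythroid progenitors without it.

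The start sites are shown for the TOP tract, the sequence feature known to link these genes. RefSeq promoter windows on GRCm38.p6 were at hand for 37 of the 42 genes, and the annotated first base was a C followed by at least 4 further C or T letters in 8 of them (21.6%), against 813 of 27025 genes (3.01%) with any such window. The search was on the transcribed strand at the annotated first base only. A start annotated a few bases away hides the tract, and a match is a description, not a mapped start. The 8 windows are given from 25 bases before to 10 bases from the start, 5′ to 3′, with the C and its pyrimidine run in capitals.
Rpl14, chr9:120571492-120571526, plus strand: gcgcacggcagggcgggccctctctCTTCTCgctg
Rpl35, chr2:39005122-39005156, minus strand: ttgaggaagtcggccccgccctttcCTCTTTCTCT
Rpl38, chr11:114668555-114668589, plus strand: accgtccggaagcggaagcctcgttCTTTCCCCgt
Rplp2, chr7:141447626-141447660, plus strand: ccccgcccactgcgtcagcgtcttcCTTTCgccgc
Rps10, chr17:27635235-27635269, minus strand: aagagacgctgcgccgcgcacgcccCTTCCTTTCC
Rps18, chr17:33955656-33955690, minus strand: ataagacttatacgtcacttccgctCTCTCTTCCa
Rps27, chr3:90213639-90213673, minus strand: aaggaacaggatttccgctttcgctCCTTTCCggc
Rps6, chr4:86857358-86857392, minus strand: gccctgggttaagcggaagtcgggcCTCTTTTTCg

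No ribosomal protein gene passed the test between knockout and control mice. The median log2 change of the 42 genes was -0.00077, with 22 below 0 and 20 above, beside a median of -0.0064 over all probe sets. Changes are knockout minus control on a scale of log2(intensity + 16), tested with limma over all probe sets with a threshold of 0.05 on the adjusted p. That test called 0 of 42 members (smallest adjusted p = 0.214) and 0.147% of all probe sets, 0.14% as higher in the knockout and 0.00666% as lower. With moderation that follows intensity it again called 0 of 42 members, against 3.21% of all probe sets. At an unadjusted p under 0.05 there were 3 members (7.14%), Rpl12, Rps25 and Rps16, against 12.4% of all probe sets. Groups had no overlap in 5 members (11.9%), against 19.5% of all probe sets. Knockout was below control in 3 of the 42 (7.14%), against 8.91% of all probe sets, and above in 2 of the 42 (4.76%), against 10.6%. Array medians were nearly equal as deposited, so a level is relative to the other transcripts, and in sorted cells fewer cells of a type and less RNA per cell cannot be told apart.

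The 42 genes fell into 34 read by very bright probe sets and 8 read by dim ones, with nothing between mean intensities of 1114 and 10143. The line drawn between them at 9000 was set after the values were seen. Ranked by mean intensity among all probe sets, the 34 bright ones were at the 99.1st percentile or above. A brighter probe set does not mean a more abundant RNA, since probes differ in how well they bind.

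**Figure D1:**
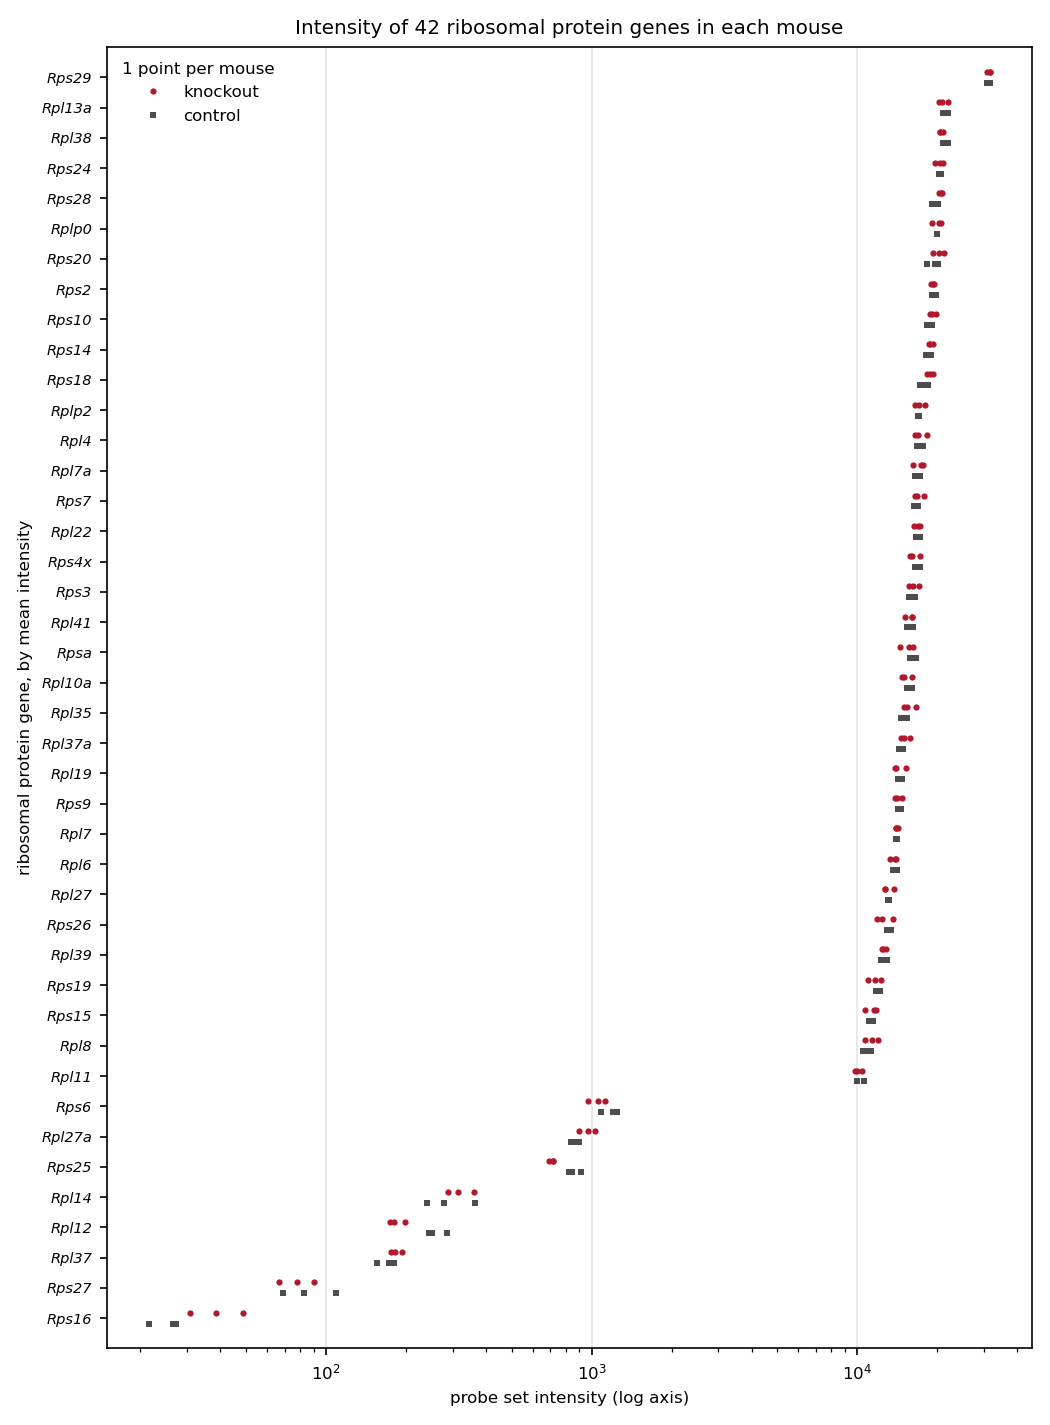
Probe set intensity (log axis) of the 42 ribosomal protein genes in each of 3 knockout mice (circles) and 3 control mice (squares), ordered by mean intensity. In 34 genes every value lay between 9840 and 31603 and the groups lay on top of each other except in Rpl38 and Rps28, while the 8 dim genes include Rpl12, Rps25 and Rps16, whose groups lay apart.

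Among the 34 bright genes the log2 changes ran from -0.06 to 0.08, with a median of -0.00077. The ratios of mean intensities, knockout over control, ran from 0.962 to 1.05. The 95% intervals of the single changes had half-widths of 0.21 to 0.25, and their outer ends over all 34 genes were -0.30 and 0.30, or 0.812-fold and 1.24-fold. The groups overlapped in 32 of the 34. The smallest unadjusted p was 0.442 and the smallest adjusted p 0.787. These intervals rest on a variance shared with all probe sets. The bright members had a median residual SD of 0.046 log2 units, against 0.21 over all probe sets, and with moderation that follows intensity the median half-width was 0.11 in place of 0.22.

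In the small subunit, Rps29 was the brightest member, and loss-of-function mutations of its human gene are one cause of Diamond-Blackfan anaemia. It had 31603, 30823 and 31501 in the knockout mice, against 30915, 31146 and 31511 in the control mice. The ranges overlapped almost fully, and the log2 change was 0.0054 ± 0.09 (SE). The array maxima were 38113 to 40360, and saturation of such bright probe sets was not tested.

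Rps19, the gene most often mutated in Diamond-Blackfan anaemia, had 10953, 12339 and 11696 in the knockout mice, against 11748, 12214 and 11848 in the control mice. The control values lay within the range of the knockout values. The log2 change was -0.03 ± 0.10, with a 95% interval from -0.27 to 0.20 (adjusted p = 0.919). Rps24, another such gene, averaged 20397 ± 645 in knockout and 20395 ± 185 in control mice (SD, n = 3 each).

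Rps28 was one of the 2 bright members whose groups did not overlap. It had 20260, 20758 and 20867 in the knockout mice, against 19188, 20140 and 20132 in the control mice. Every knockout value was higher, by a log2 change of 0.06 ± 0.09 (adjusted p = 0.844). The two-sided exact permutation p was 0.1, the smallest that 3 against 3 mice allow. Its other 2 probe sets had log2 changes of -0.04 and -0.03.

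Rps18 and Rps20 had the most positive changes of the bright small-subunit genes, 0.08 and 0.06. Rps18 averaged 18832 ± 457 in knockout and 17869 ± 649 in control mice (SD, n = 3 each). Rps20 had 21248, 20301 and 19332 in the knockout mice, against 18321, 19712 and 20216 in the control mice. The groups overlapped in both genes. Rpsa, which also serves as a laminin receptor, had the most negative change of the bright members, -0.06, with 14554, 16221 and 15603 in the knockout mice, against 15750, 15800 and 16670 in the control mice. Rps14, whose loss underlies the anaemia of the human 5q deletion syndrome, had 18895 ± 349 in knockout and 18639 ± 409 in control mice (SD, n = 3 each).

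In the large subunit, Rpl38 was the other bright member without overlap. In mouse embryos its protein is known to favour the translation of Hox mRNAs. It had 20526, 21058 and 20514 in the knockout mice, against 21966, 21090 and 21417 in the control mice. Every knockout value was lower, knockout mouse 2 only just, and the log2 change was -0.05 ± 0.09 (adjusted p = 0.858).

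The ribosomal stalk, which draws elongation factors to the large subunit, was represented by Rplp0 and Rplp2. Rplp0 averaged 20030 ± 762 in knockout and 20017 ± 20.5 in control mice (SD, n = 3 each). Rplp2 averaged 17234 ± 776 in knockout and 17069 ± 72.6 in control mice. In both the control values lay closer together than the knockout values, as they did in 26 of the 34 bright genes on the log2 scale.

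Rpl11, which together with Rpl5 binds Mdm2 and so restrains p53 degradation when ribosome assembly fails, averaged 10084 ± 333 in knockout and 10202 ± 360 in control mice (SD, n = 3 each), a log2 change of -0.02. Rpl35 and Rpl8 had the most positive changes of the bright large-subunit genes, 0.07 and 0.06. Rpl35 had 15368, 16598 and 14991 in the knockout mice, against 14616, 15372 and 14652 in the control mice. The X-linked members Rps4x and Rpl39 had log2 changes of -0.04 and -0.02.

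The ranges of the subunits overlapped. The 16 bright small-subunit genes had a median log2 change of 0.0056 and a range from -0.06 to 0.08. The 18 bright large-subunit genes had a median of -0.0049 and a range from -0.05 to 0.07. Of 20 genes listed as mutated in Diamond-Blackfan anaemia, 12 were members, 0 passed the test, and 6 had changes below 0 and 6 above. Their median was 0.0026 on the deposited scaling. The 8 genes with a tract at the annotated start had a median of 0.03 and the 29 with none there one of -0.0077.

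**Figure D2:**
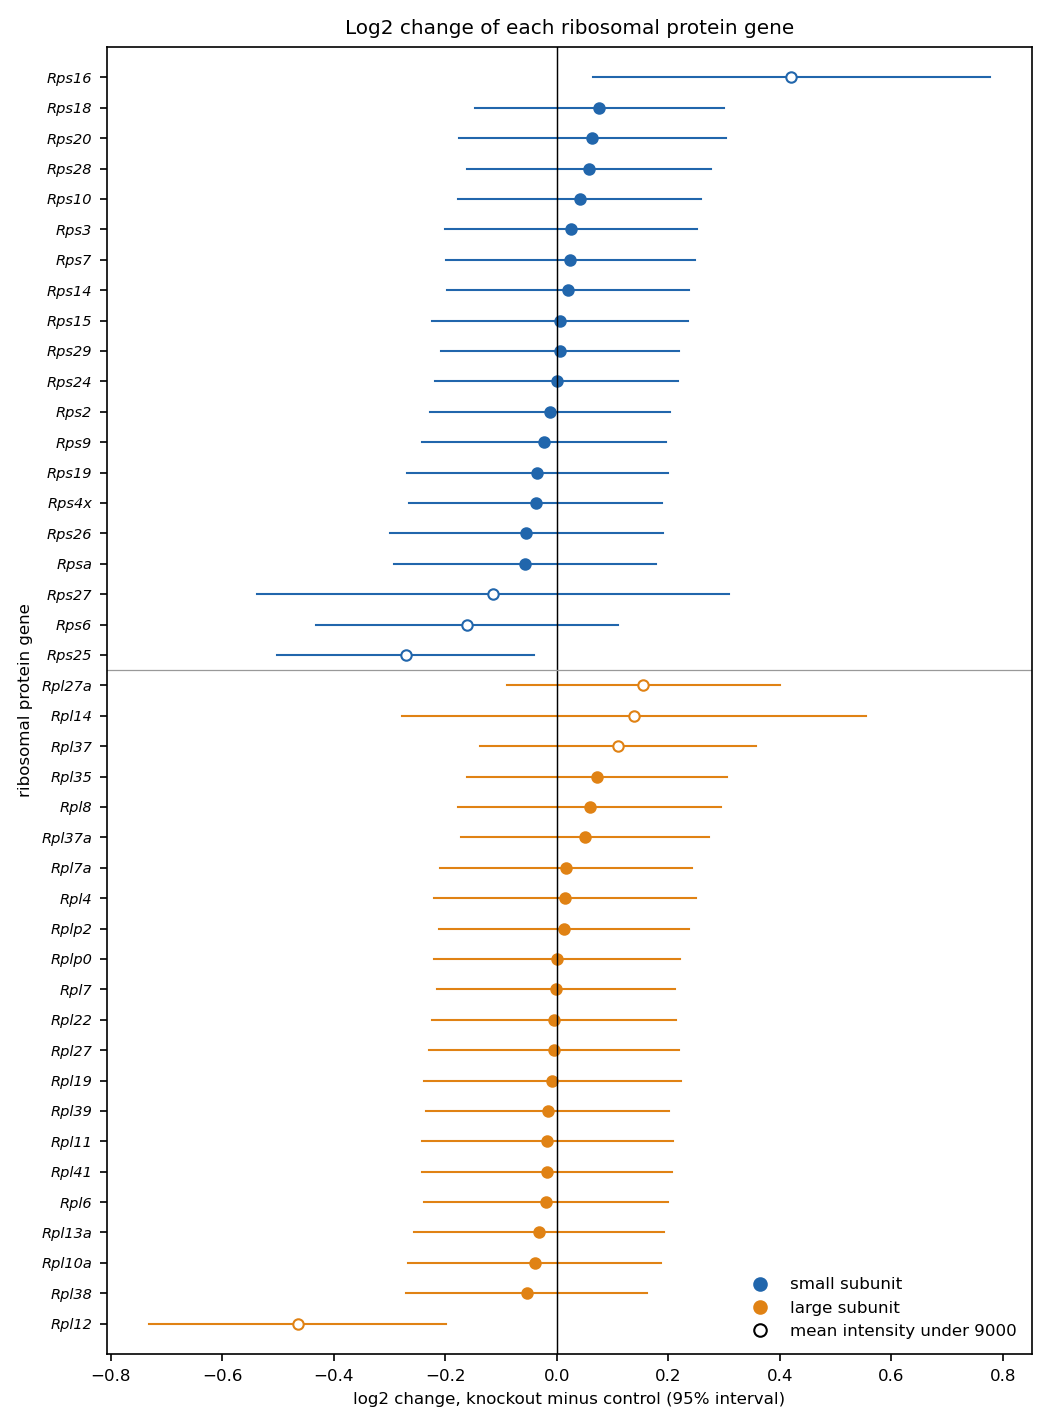
Log2 change, knockout minus control, of each of the 42 ribosomal protein genes with its 95% interval from limma, small subunit above and large subunit below. Filled points are probe sets of mean intensity of at least 9000 and open points dimmer ones. All intervals of filled points span 0, and the intervals of 3 open points, Rps16, Rps25 and Rpl12, do not.

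The 3 members whose single-gene intervals left out 0 were all read by dim probe sets. Rpl12 encodes a protein at the base of the stalk, where elongation factors dock. It had 174, 180.0 and 199 in the knockout mice, against 251, 286 and 245 in the control mice. Every knockout value was lower, and the log2 change was -0.47 ± 0.11 (95% interval -0.73 to -0.20, adjusted p = 0.214). Its adjusted p was 0.0444 when the dimmer 50% of probe sets were left out before the fit, which changes both the shared variance and the number of tests, and ran up to 0.437 over the other settings tried.

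Rps25, a small-subunit protein needed for initiation at certain viral internal ribosome entry sites, had 718, 717 and 689 in the knockout mice, against 845, 909 and 823 in the control mice. Every knockout value was lower, with a log2 change of -0.27 ± 0.10 (adjusted p = 0.339). Rps16, whose protein reaches towards the peptidyl site of the small subunit, had 38.7, 48.7 and 30.6 in the knockout mice, against 21.5, 27.1 and 26.5 in the control mice. Every knockout value was higher, by a log2 change of 0.42 ± 0.15 (adjusted p = 0.339). This probe set lay at percentile 35.0 of all probe sets, and without detection calls its level cannot be told from background.

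In the other 5 dim members the groups overlapped. Rps6, whose phosphorylation by kinases of the mTOR pathway is a common readout of growth signalling, had 1127, 1061 and 965 in the knockout mice, against 1081, 1248 and 1201 in the control mice, a log2 change of -0.16 (95% interval -0.43 to 0.11). Rpl27a had a change of 0.16, Rpl14 one of 0.14, Rpl37 one of 0.11 and Rps27 one of -0.11. Their intervals were wider than those of the bright genes, with half-widths up to 0.42.

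Several probe sets read the same gene in 22 members, up to 6 per gene. Of the 94 probe sets 62 were bright, and their log2 changes ran from -0.06 to 0.10, with 0 at an unadjusted p under 0.05. The 32 dim ones ran from -0.49 to 0.71. In the 15 genes with at least 2 bright probe sets, the largest gap between the changes of one gene was 0.11, in Rpl35, and the median gap was 0.04. No probe set passed the test (smallest adjusted p = 0.205), 7 (7.45%) had an unadjusted p under 0.05, against 12.4% of all probe sets, and the groups did not overlap in 9 (9.57%), against 19.5%.

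Bright and dim probe sets of one gene could differ. Rpl41, the gene of the shortest ribosomal protein, had bright probe sets with changes of -0.02 and -0.04 and dim ones with -0.39 and -0.41. The brighter of the dim pair had 310, 339 and 343 in the knockout mice, against 372, 493 and 457 in the control mice, and the groups did not overlap (adjusted p = 0.326). For Rps3, at the mRNA entry of the small subunit, the bright probe set had a change of 0.03 and the dimmest one of 0.71, with 32.1, 21.6 and 20.8 in the knockout mice, against 9.1, 5.13 and 12.5 in the control mice. That dimmest Rps3 probe set lay at percentile 20.4 of all probe sets, and its level cannot be told from background. The remaining Rps3 probe set, also dim, had a change of -0.09. Rps20 had dim probe sets with changes of -0.29 and 0.22.

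**Figure D3:**
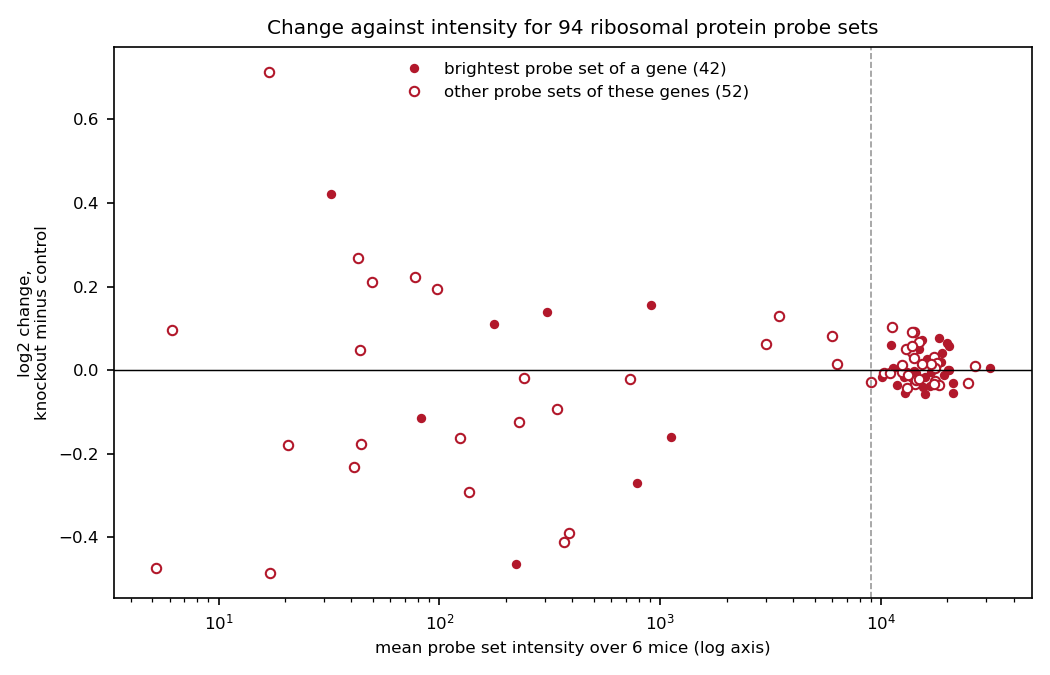
Log2 change, knockout minus control, against mean intensity over 6 mice (log axis) for the 94 probe sets of the 42 genes. Filled points are the brightest probe set of each gene, open points the other 52, and the dashed line marks an intensity of 9000. Right of the line changes lie between -0.06 and 0.10, and left of it between -0.49 and 0.71.

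A ribosomal protein symbol also stood among several symbols on 110 further probe sets, which can read processed pseudogenes as well. None of these passed the test (smallest adjusted p = 0.381), and 1 had an unadjusted p under 0.05. Their median log2 change was -0.0072. The 76 bright ones ran from -0.08 to 0.24. The groups did not overlap in 15 of the 110 (13.6%), against 19.5% of all probe sets.

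Many of the bright members were high or low in the same mouse. Against the control mean of each gene, the median deviation was -0.05, 0.04 and 0.0040 log2 units in knockout mice 1, 2 and 3, and -0.01, -0.0058 and 0.0072 in control mice 1, 2 and 3. Knockout mouse 2 held the highest value of the knockout group in 27 of the 34 genes and knockout mouse 1 the lowest in 26. In control mice 1, 2 and 3 the highest value of the control group fell in 12, 9 and 13 genes and the lowest in 19, 10 and 5. The summed intensity of the 34 probe sets was 551813, 581545 and 562313 in the knockout mice, against 559936, 562426 and 567703 in the control mice. This sum was 2.14%, 2.20% and 2.14% of all intensity in the knockout mice, against 2.21%, 2.31% and 2.26% in the control mice. All 3 shares were lower in the knockout, while the sums overlapped. A share also depends on the intensity of all other probe sets, so it does not by itself show a fall of these genes.

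**Figure D4:**
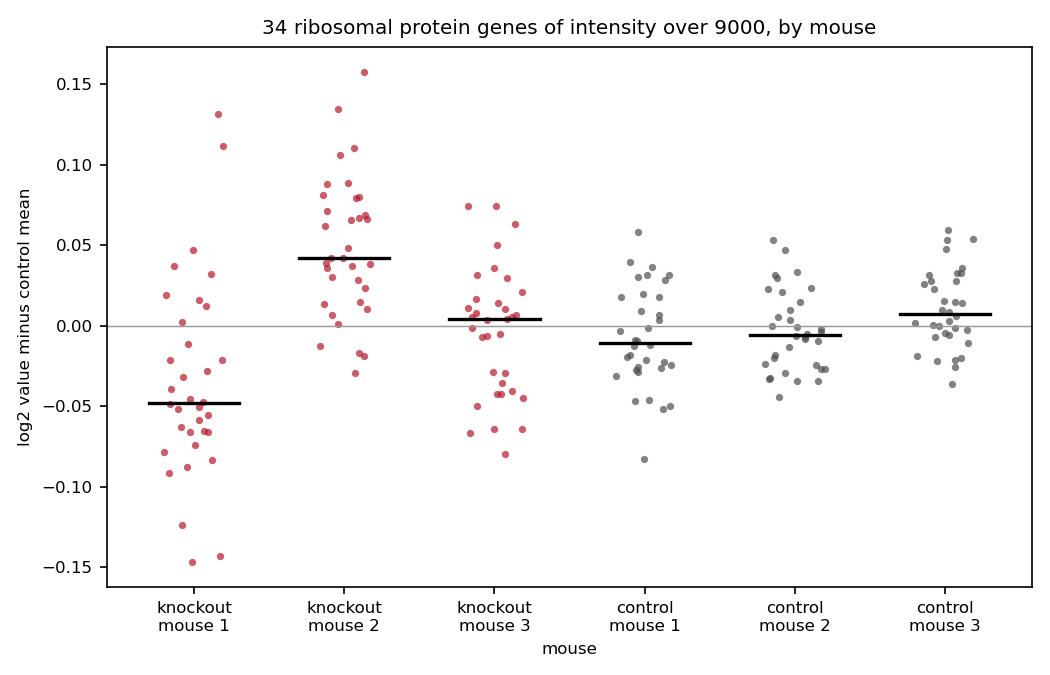
Log2 value of the 34 bright ribosomal protein genes in each mouse, minus the mean of the 3 control mice for that gene (1 point per gene, black line at the median). The medians were -0.05, 0.04 and 0.0040 in knockout mice 1, 2 and 3 and between -0.01 and 0.0072 in the control mice.

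The sign of these small values differed with the scaling. Quantile normalization gave a median of -0.06 over the 42 genes with 33 below 0, cyclic loess normalization one of -0.11 with 38 below 0, and centring on the array median one of 0.02 with 12 below 0. After cyclic loess all 34 bright members were below 0, between -0.17 and -0.04. Of the 12 Diamond-Blackfan genes, 8 were below 0 after quantile normalization, 12 after cyclic loess and 3 after median centring. Their medians were -0.03, -0.10 and 0.02. The median over all probe sets moved little, to -0.02, -0.0086 and 0.01. Under none of the 3 did any member pass the test. The list is therefore given no direction.

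On the deposited scaling, other bright probe sets differed more between the groups. Outside the ribosomal protein genes 335 probe sets had a mean intensity of at least 9000. Of these, 174 (51.9%) had a log2 change smaller than 0.1 either way, against 34 of 34 bright members, and 21 had a change of at least 0.5. The count of 34 of 34 did not hold after cyclic loess or quantile normalization, where bright members reached -0.17. Their medians were then -0.11 and -0.06, against -0.05 and -0.01 for the 335. The test called 3 of the 335 (0.896%), all embryonic globin probe sets, which passed the line of 9000 only through the knockout mice. Hba-x averaged 19646 in knockout and 23.1 in control mice, and the Hbb-y probe sets averaged 57.7 and 73.3 in control mice. The line is on the mean over all mice, so other probe sets with changes of at least 0.5, none of them called, also lay under it in one group. Rhd averaged 10921 in knockout and 7193 in control mice (adjusted p = 0.266), and Prxl2a 6583 and 12800 (adjusted p = 0.0812). Xpo7, a nuclear transport receptor of maturing erythroblasts, had 20840, 22039 and 22284 in the knockout mice, against 16675, 12461 and 15495 in the control mice. Its log2 change was 0.56 (adjusted p = 0.220), and it was picked after its values were seen. The groups did not overlap in 131 of the 335 (39.1%), against 2 of the 34 bright members (5.88%).

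Relatives of the members outside the naming rule gave no call either. Of 13 listed genes 8 were measured, 0 passed the test, and the median log2 change was -0.0049. Every knockout value was above control in 2 of the 8, Rps4l and Rps27l, against 10.6% of all probe sets. In 0 of the 8 was every knockout value below. Only 1 of the 8 had an unadjusted p under 0.05, against 12.4%. Rps27l had a change of 0.09 (adjusted p = 0.743). Rpl22l1, the paralog that can take the place of Rpl22 in the ribosome, had 7611, 7398 and 7087 in the knockout mice, against 6767, 7108 and 7217 in the control mice, and Rpl22 itself averaged 16854 ± 458 in knockout and 16909 ± 337 in control mice (SD, n = 3 each). Fau, the gene of a ubiquitin-like protein fused to a small-subunit protein, had a change of -0.06. Rps4l, a close relative of Rps4x, had a dim probe set with 128, 103 and 120.0 in the knockout mice, against 76.6, 91.4 and 77.1 in the control mice, a change of 0.44 ± 0.12 (adjusted p = 0.252).

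Other genes listed as having TOP mRNAs also gave no call. Most encode translation factors, and the list also holds Vim (an intermediate filament protein), Cct4 (a chaperonin subunit), Hnrnpa1 (a splicing regulator), Nap1l1 (a histone chaperone) and Tpt1. Of 20 listed, 19 were measured and 0 passed the test, with 7 changes above 0 and 12 below and a median of -0.02. Eef1a1, which delivers aminoacyl-tRNA to the ribosome, had a change of 0.01 and Pabpc1, the poly(A)-binding protein, one of -0.02. The furthest from 0 were Btf3, a chaperone of nascent chains, at 0.16 and Eif4a2, an initiation helicase, at -0.15. After quantile and cyclic loess normalization the median was -0.12 and -0.11, and after median centring 0.0014.

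A mixed list of genes around TOP mRNA translation held mTOR pathway genes, cap-binding and other RNA-binding proteins, the transcription factor genes Myc and Mycn, and the ribosome rescue and recycling genes Pelo, Hbs1l and Abce1. Of 24 listed, 22 were measured and 0 passed. An unadjusted p under 0.05 was found in 2 of the 22, against 12.4% of all probe sets. Knockout was above control without overlap in 4 of the 22, against 10.6%, and below in 1, against 8.91%. The median was 0.04, and it was -0.03 after quantile and -0.0060 after cyclic loess normalization and 0.06 after median centring. Larp1 had a change of 0.06, with 1683, 1683 and 1740 in the knockout mice, against 1594, 1663 and 1639 in the control mice, and the kinase gene Mtor one of -0.12. Tial1, an RNA-binding protein that can hold TOP mRNAs back from translation, had 1831, 1952 and 1753 in the knockout mice, against 1449, 1442 and 1608 in the control mice, a change of 0.30 ± 0.10 (adjusted p = 0.333). Hbs1l, which helps to rescue stalled ribosomes, had a change of 0.25 ± 0.10 (adjusted p = 0.374).

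Genes that build ribosomes had changes below 0 more often than above, and none passed the test. Of 71 listed factors of rRNA transcription and ribosome assembly 70 were measured, and 0 passed. Changes were below 0 in 55 and above 0 in 15, with a median of -0.12. Every knockout value was below every control value in 26 (37.1%), against 8.91% of all probe sets, and 10 (14.3%) had an unadjusted p under 0.05, against 12.4%. The summed intensity of the 70 probe sets was 65165 to 70888 in the knockout mice, against 72050 to 75099 in the control mice. The median stayed below 0 after quantile (-0.16), cyclic loess (-0.14) and median scaling (-0.10).

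Polr1a, the largest subunit of RNA polymerase I, which transcribes rRNA, had 339, 272 and 353 in the knockout mice, against 462, 398 and 447 in the control mice. Its log2 change was -0.43 ± 0.13 (adjusted p = 0.303). Utp20, a factor of early small-subunit processing, had 248, 230.0 and 240 in the knockout mice, against 345, 330.2 and 298 in the control mice, a change of -0.41 ± 0.10 (adjusted p = 0.222). Pno1 and Wdr12, which act in small-subunit and large-subunit assembly, had changes of -0.32 and -0.33. Sbds, the gene of Shwachman-Diamond syndrome, had a change of 0.28, with every knockout value above the controls (adjusted p = 0.404). Whether the assembly list and the ribosomal protein genes differ from each other was not tested.

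**Figure D5:**
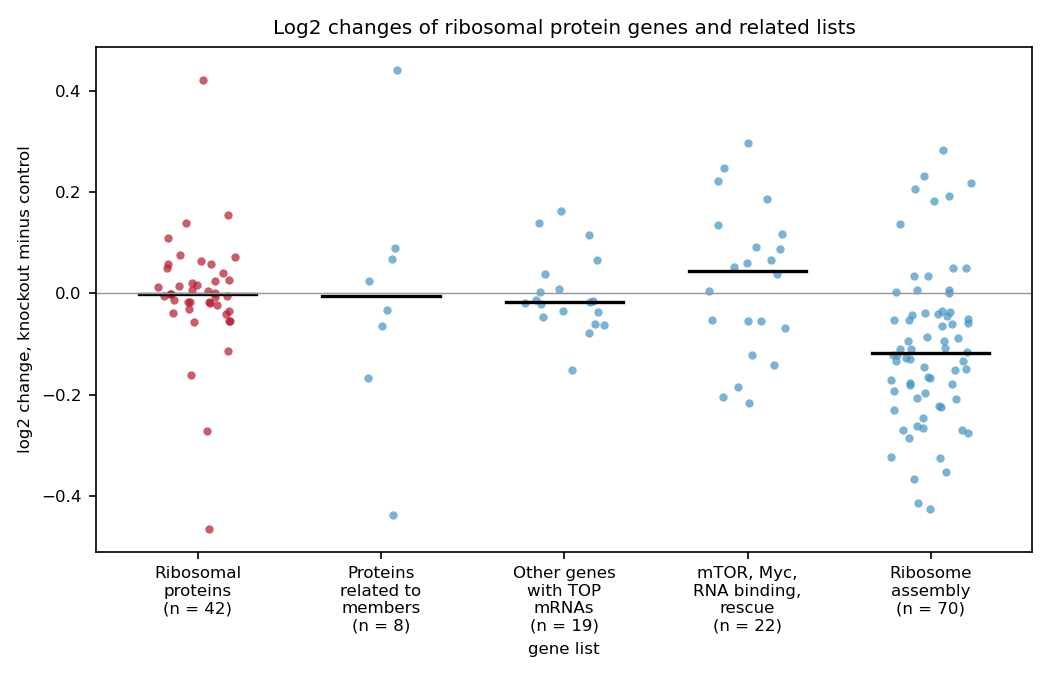
Log2 changes, knockout minus control, of the 42 ribosomal protein genes and of related lists (1 point per gene, black line at the median). Medians were -0.00077 for the ribosomal proteins, -0.0049 for relatives, -0.02 for other genes with TOP mRNAs, 0.04 for the mixed list of mTOR pathway, Myc, RNA-binding and ribosome rescue genes, and -0.12 for ribosome assembly.

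Ribosomal protein genes are expressed by all cells, so markers of the cells in the sort stand beside these values. Of 9 erythroid markers 7 were measured, at mean intensities from 1082 to 24414, and their summed level was 80358 to 87362 in the knockout mice, against 64394 to 77578 in the control mice. Their median log2 change was 0.38, 5 of 7 had every knockout value above control (10.6% of all probe sets), and 4 had an unadjusted p under 0.05 (12.4%). The changes ran from -0.14 to 0.75, with 2 of 7 below 0. Neutrophil markers, 10 of 10 measured, summed to 193209 to 201048 in the knockout, against 209496 to 210603 in the control mice, and 7 of 10 had no overlap, all with knockout below (8.91% of all probe sets). The median log2 change of these 10 was only -0.09, and 0 of 10 had an unadjusted p under 0.05 (12.4%). Mean intensities of neutrophil markers reached 39328, near the array maxima, and saturation was not tested. Pre-B cell markers, 7 of 8, summed to 9186 to 12313 in the knockout mice, against 13141 to 15620 in the control mice. Early progenitor markers, 6 of 6, summed to 6573 to 8331 in the knockout mice, against 10006 to 10105 in the control mice. Basophil and mast cell markers, 4 of 5, summed to 3727 to 5287 in the knockout mice, against 5802 to 6174 in the control mice. These sums lay below control in every knockout mouse. Macrophage markers, 7 of 7, summed to 10012 to 10670 in the knockout mice, against 8895 to 10107 in the control mice. T cell markers, 3 of 4, summed to 715 to 953 in the knockout mice, against 518 to 820 in the control mice. Megakaryocyte markers, 5 of 5, summed to 4701 to 6023 in the knockout mice, against 2096 to 2496 in the control mice, and Itga2b was the 1 marker called. The megakaryocyte markers were mixed, with 3 changes above 0 and 2 below, from -0.27 to 2.74, and a median of 0.19. Every knockout value was above control in 1 of the 5 (10.6% of all probe sets). No measured marker was at 0. The part of these cells in the ribosomal protein and assembly values was not tested.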

How the data were processed

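Per the labels, Trizol-extracted RNA was labelled with biotin for Affymetrix arrays, 1 per mouse. The authors deposited 1 linear intensity for each probe set and array. How these were summarised and scaled is not stated in the sources used here. They were taken as log2(intensity + 16) without further normalization, since array medians and interquartile ranges differed by at most 0.057 and 0.070 log2 units. limma 3.58.1 (R 4.3.3; lmFit, then eBayes with no trend) gave two-sided tests, adjusted by Benjamini-Hochberg across 45037 probe sets; the code was tested on simulated data. Precision is limited by having 3 mice per group. Means and SDs are of linear intensities, and errors of changes are standard errors.

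The platform annotation gave 1 symbol for 34945 probe sets, several for 932 and none for 9160. All 42 members matched a RefSeq gene. Members were named by rule: those called, the 8 most positive and 8 most negative changes, the 5 brightest and 5 dimmest, Diamond-Blackfan genes, those whose groups do not overlap, the 6 whose probe sets differ most, and up to 4 of each other list by p. Rpl22, Rpl39, Rplp0, Rplp2, Rps14, Rpl22l1, Fau, Eef1a1, Pabpc1, Larp1, Mtor, Sbds and Xpo7 were added after their values were seen. Members and lists were chosen with earlier results of these data known. Deviations of equally numbered mice over all probe sets correlated at -0.040 to -0.014, so no pairing by number was seen. Many probe sets are near background, so this cannot show that the mice were unpaired. Alternatives were other normalizations, pseudocounts, filters, moderation and probe set choices, the replicate block, and leaving out each mouse.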

Additional observations from a re-analysis of the deposited data

How the results depend on the processing

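The count of 0 members higher in the knockout held under all 16 planned settings, and 0 lower under all but one: with the brightest 50% of probe sets alone, 1 member passed as lower, Rpl12 (adjusted p = 0.0444, and 0.0561 to 0.437 under the others), where the shared variance is estimated again and fewer tests are adjusted for; these were not separated. The median log2 change was -0.059 after quantile and -0.11 after cyclic loess normalization, and the number of members below 0 was 38 after cyclic loess and 12 after median centring; the cause was not tested. Leaving out each mouse gave medians from -0.02 to 0.02 and 15 to 28 members below 0, with no member called. The fit with the replicate block called 0 members, with a median of -0.00077. Keeping only the 34 bright members, a setting added after the data were seen, gave a median of -0.00077 and 18 below 0. With pseudocounts of 1 and 64 the change of Rps16 was 0.61 and 0.21. Of 399 values of 25 named members under these settings, 359 moved by less than the residual SD. This count is no measure of stability. Leaving out dimmer probe sets, other moderation and the replicate block cannot move a log2 change. The normalizations can, as the medians above show. Signals near the array maxima and near background limit what can be seen.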
